A study of Homo sapiens with 32 samples.

Results

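The 31 genes described here were silent in untreated MDA-MB-468 cells and were switched on after 72 h of salinomycin (Sal), alone or with dasatinib (Das). They are the protein-coding genes with at most 2 counts in each of the 8 control libraries and at least 15 counts in every Sal library or every S + D library of 72 h, and they were thus selected on the control, Sal 72 h and S + D 72 h libraries. Of 48804 genes listed in the count table, 19391 were protein-coding, 4738 of these were silent in the controls, and 31 of those 4738 (0.654%) met the bound at 72 h. The same bounds held for 54 annotated genes of every kind, of which 20 were genes of long non-coding RNA and 3 were pseudogenes.

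All 32 libraries come from MDA-MB-468, a line of human triple-negative breast cancer cells, and no other line stands beside it. The 4 treatments were PBS as the control, Sal at 0.5 μM, Das at 15 μM, and S + D at 15.5 μM in total, and RNA was taken after 24 h or 72 h from 4 libraries per condition, 1 without a replicate number and 3 numbered from 1 to 3. Each drug was given at a single dose, so a time course of 2 points can be described but no relation to dose. Sal is a polyether antibiotic that carries monovalent cations across membranes, and Das is an inhibitor of Src family kinases.

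A gene that belongs to another tissue is usually kept off in a cell by compacted chromatin, by methylation of its promoter, or because the factors that would activate it are missing. Cancer cell lines often express some genes of other tissues, and genes of testis, brain and placenta are the best known among them. In bulk RNA, a few cells with a high level of such a transcript and many cells with a low level cannot be told apart, and neither can fewer cells of a type and less RNA per cell.

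Library totals ran from 25692561 to 42769687 counts, and levels are given as counts per library or as CPM, which sets counts relative to the library total with edgeR's TMM factors. Values are listed with the unnumbered library first, followed by replicates 1, 2 and 3. A pair of libraries stood apart from their groups on the first principal component of all libraries, which held 59.7% of the variance. The unnumbered Sal 24 h library lay at 5.93, whereas its 3 numbered partners lay between -36.7 and -32.3, and Das 72 h replicate 3 lay at -36.2, whereas the other Das 72 h libraries lay between 6.49 and 23.4. The unnumbered libraries of the 8 conditions deviated together from their group means, with correlations across genes of 0.405 to 0.755 over 28 pairs (median 0.63), and the cause was not tested. EGFR, which this line carries in many copies, had a mean between 3590 and 5640 CPM in the 4 conditions of 72 h.

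Sequences were at hand for the promoters of 19 of the 31 genes, in a RefSeq table on GRCh38.p14. The promoters of BEX2 and BEX4 are shown because both genes of this family had at least 15 counts in every S + D library of 72 h. They lie 92100 bases apart on the X chromosome, with TCEAL8 and TCEAL5 between them. Those of HTRA3 and NPHS1 are shown because both genes had 0 counts in all 8 control libraries and are among the highest at 72 h. Each line gives the 250 bases before the start of transcription, 5′ to 3′ on the strand of the gene. For BEX2 (chrX:103310991-103311240, minus strand) and BEX4 (chrX:103214842-103215091, plus strand), capitals mark runs of 12 or more bases that both promoters hold. For HTRA3 (chr4:8269504-8269753, plus strand) and NPHS1 (chr19:35852505-35852754, minus strand), capitals mark CpG dinucleotides.
BEX2: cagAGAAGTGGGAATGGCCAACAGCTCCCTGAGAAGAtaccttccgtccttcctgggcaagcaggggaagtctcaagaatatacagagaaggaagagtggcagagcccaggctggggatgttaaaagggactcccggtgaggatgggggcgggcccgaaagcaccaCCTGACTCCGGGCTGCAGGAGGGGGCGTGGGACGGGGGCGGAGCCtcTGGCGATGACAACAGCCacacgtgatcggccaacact
BEX4: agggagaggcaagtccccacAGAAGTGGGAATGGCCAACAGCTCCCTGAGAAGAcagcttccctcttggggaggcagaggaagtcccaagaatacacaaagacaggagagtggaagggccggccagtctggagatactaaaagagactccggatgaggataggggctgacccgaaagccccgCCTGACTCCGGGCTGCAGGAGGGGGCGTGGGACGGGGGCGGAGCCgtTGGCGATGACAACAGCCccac
HTRA3: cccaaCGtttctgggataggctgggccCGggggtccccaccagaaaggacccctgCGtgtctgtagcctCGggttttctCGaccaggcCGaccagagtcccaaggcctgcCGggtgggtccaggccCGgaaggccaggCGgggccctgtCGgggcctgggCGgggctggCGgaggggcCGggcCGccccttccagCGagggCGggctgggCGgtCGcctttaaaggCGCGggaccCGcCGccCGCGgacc
NPHS1: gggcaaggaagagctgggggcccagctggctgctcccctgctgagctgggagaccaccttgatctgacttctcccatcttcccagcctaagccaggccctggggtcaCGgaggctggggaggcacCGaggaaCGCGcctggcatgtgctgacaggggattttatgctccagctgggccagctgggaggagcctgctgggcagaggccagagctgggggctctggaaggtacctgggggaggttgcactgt

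The shared runs covered 96 of the 250 bases of BEX2 in 3 stretches, of which the longest had 45 bases, and a global alignment of both promoters had 202 identical bases in 271 columns (74.5%). The E-box CACGTG, which reads the same on both strands, began 19 bases before the start of BEX2 and 3 bases before that of BEX4, where its end lies past the printed stretch. E-boxes of this kind occurred in 8.9% of the 14998 promoters in the table, counted over 250 bases before and 50 after the start. Among the BEX, ARMCX and TCEAL genes of the X chromosome, 12 of 18 promoters in the table held one, including those of ARMCX2, TCEAL2, TCEAL5 and TCEAL6, which stayed at 4 counts or fewer in every library. HTRA3 held 24 CpG dinucleotides in its 250 bases and NPHS1 held 4, so these 2 genes, both at 0 counts in every control library, differed widely in CpG content. Over all promoters the GC box GGGCGG, searched on both strands, occurred in 59.7%, and the printed promoters of BEX2, BEX4 and HTRA3 hold it. Because promoters were at hand for only 61.3% of the 31 genes, a comparison of their motifs with other promoters was void.

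At 72 h, the summed level of the 31 genes was 0.31 ± 0.0745 CPM in the control (mean ± SD, n = 4), 61.1 ± 15.7 CPM in Sal, 4.93 ± 3.01 CPM in Das and 86.3 ± 5.71 CPM in S + D libraries. The 43 counts of all 4 control libraries together stood against 7960 for Sal, 665 for Das and 11933 for S + D. At 24 h, the summed level was 0.3 ± 0.0819 CPM in the control, 3.5 ± 4.96 CPM in Sal, 1.65 ± 0.186 CPM in Das and 3.52 ± 1.68 CPM in S + D libraries. Without the unnumbered libraries (n = 3), the level at 24 h was 0.298 ± 0.1 CPM in the control and 1.03 ± 0.322 CPM in Sal. In the same libraries it was 1.62 ± 0.219 CPM in Das and 2.68 ± 0.192 CPM in S + D, so Sal lay below both. The means of all 4 libraries at 24 h were 11.7 times the control of that time with Sal, 5.49 times with Das and 11.7 times with S + D. These ratios are taken to controls on which the genes were chosen to be low. Since the genes were chosen to be low in the controls and high with Sal or S + D at 72 h, the rise at 72 h and its distance from 24 h follow from the choice and carry no test.

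**Figure D1:**
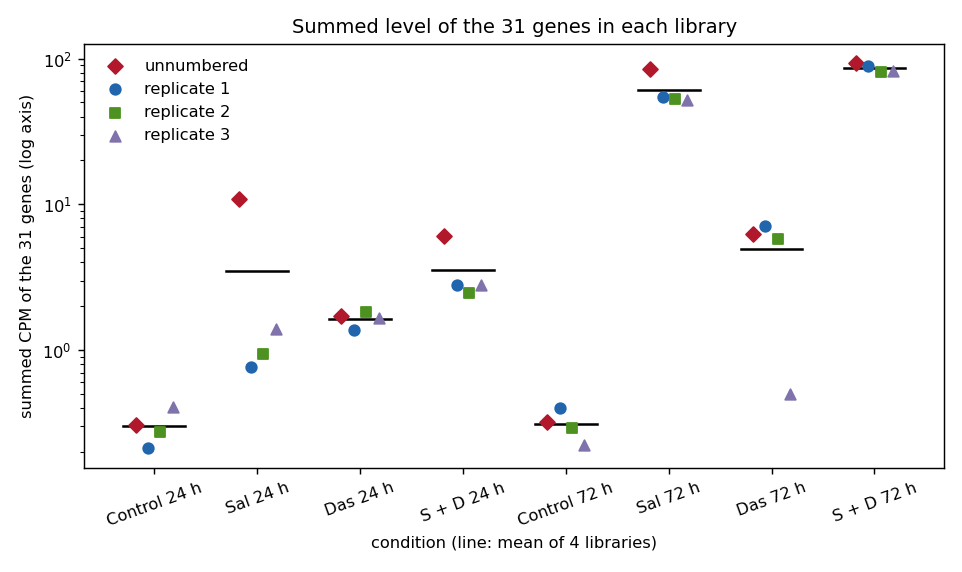
Summed CPM of the 31 genes in each of the 32 libraries (log axis), by condition, with a marker per library and a line at the mean of 4 libraries. The control libraries lie between 0.212 and 0.408 CPM, the Sal 72 h and S + D 72 h libraries between 52.2 and 92.8, and the unnumbered Sal 24 h library (10.9) and Das 72 h replicate 3 (0.498) lie away from their groups.

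Of the 31 genes, 17 met the bound in every Sal 72 h library and 26 in every S + D 72 h library. Both bounds were met by 12 genes (ALPI, BEX2, BIRC7, COL20A1, DMRT1, EN2, HTR3A, HTRA3, LAMA1, NAT16, NPHS1 and SIGLEC1), the Sal bound alone by 5 (CDH15, CEMP1, NOL4, OTOP2 and TEX36) and the S + D bound alone by 14 (among them ADAMTS16, ARMCX3, BEX4, BPIFC, COL6A1, GLP2R, HRG, PCDH12, PLET1, SCGB1D2, TFF2, TM4SF19 and TMEM71). For comparison, the silent protein-coding genes with at least 15 counts in every library were 1 in Das 72 h (TFF1), 2 in Das 24 h (MRO and PRSS56), 1 in S + D 24 h (MRO) and 0 in Sal 24 h, and none of these genes is among the 31. In the fit of all 17227 genes tested, the share above the Control 72 h libraries was 9.26% with Sal and 9.72% with S + D, and the share below them was 9.49% and 10.6%. These shares are given as the background only, since the same contrasts chose the 31 genes.

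**Figure D2:**
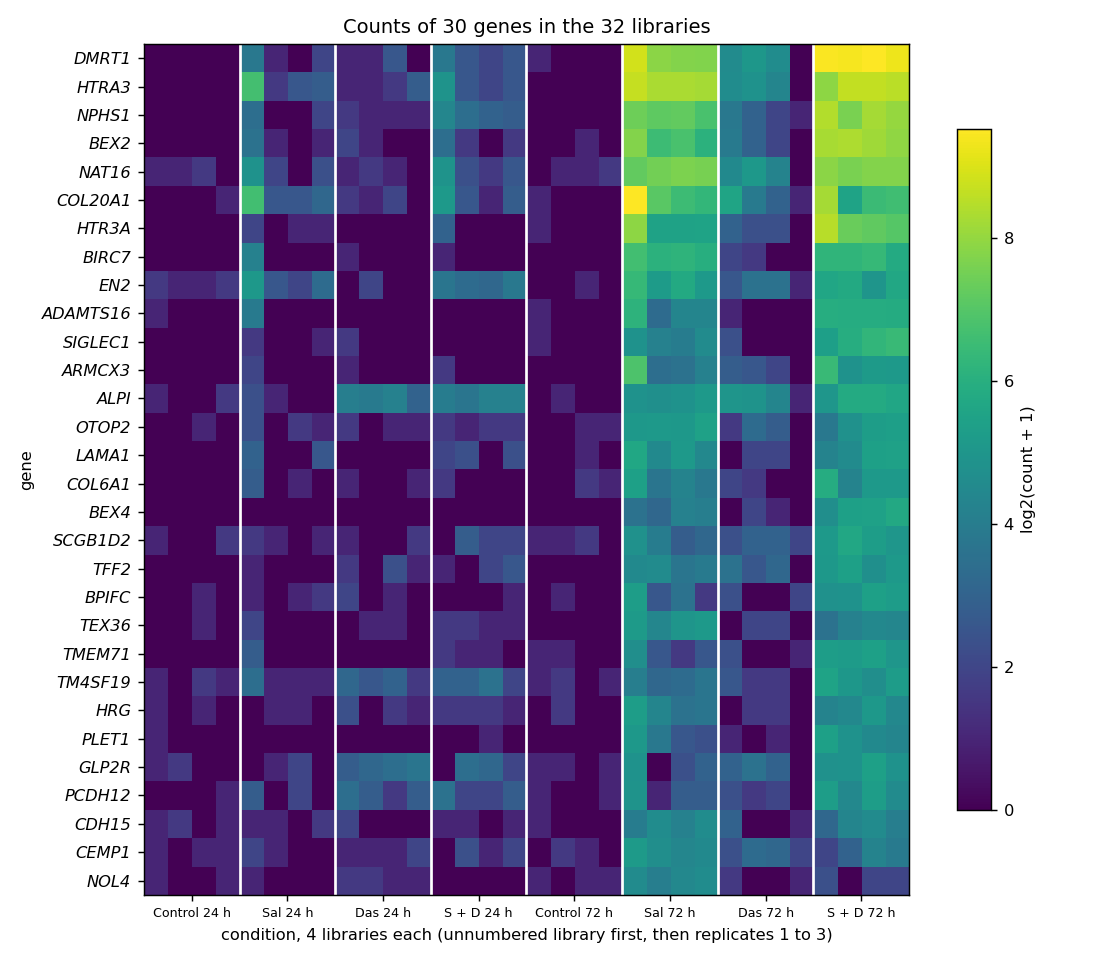
Counts of 30 of the 31 genes (rows, ordered by their sum over the Sal 72 h and S + D 72 h libraries) in the 32 libraries (columns, 4 per condition), coloured by log2(count + 1). The Sal 72 h and S + D 72 h blocks are bright by construction, whereas Das 72 h replicate 3 is at 0 for 20 of the 30 genes.

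The bounds themselves cut through a continuous range. Among the members nearest the treated bound were CDH15 (lowest treated count 15) and NOL4 (16), and the genes just outside it were ANK2, LSMEM2 and OTOF, each at 13. In the controls, 6 of the 31 genes had 0 counts in all 8 libraries, 15 had a highest count of 1 and 10 had a highest count of 2, the last including NAT16, EN2 and ALPI. Just outside lay MUC4, PDIA2 and TCEAL9, which had 3 counts in 1 or more control libraries and at least 935, 119 and 75 counts in each library of a treated group.

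The regulators and germ line genes were DMRT1, EN2, TEX36 and NOL4. DMRT1 (chr9:841690-969090 on GRCh37), a transcription factor with a DM domain that maintains male fate in the testis, had 465, 234, 217 and 213 counts with Sal at 72 h and 705, 666, 727 and 616 with S + D. All S + D libraries lay above all Sal libraries, and the mean was 8.69 ± 2.12 CPM with Sal and 19.6 ± 1.27 CPM with S + D. In the controls, DMRT1 had 1 count in 1 library and 0 in the other 7. Its relatives next to it on chromosome 9 stayed low, as DMRT3 had at most 4 counts and DMRT2 at most 1 count in any library. DMRTA2 on chromosome 1 had 1 to 10 counts in the Control 72 h libraries, 43 to 112 with Sal and 34 to 48 with S + D. Its log2 fold change was 3.58 with Sal (edgeR adjusted p = 1.89e-06) and 2.94 with S + D (edgeR adjusted p = 3.66e-05). DMRTA1 rose less (log2 fold change 0.99 with Sal and 0.67 with S + D) and was not called. DMRTC2 had at most 3 counts and DMRTC1B 0 in every library. EN2 (chr7:155250824-155257526), a homeobox factor of the developing midbrain and cerebellum, had 82, 37, 54 and 34 counts with Sal at 72 h and 49, 54, 30 and 51 with S + D, and the groups overlapped. The related EN1 was expressed in the controls (8.72 ± 3.91 CPM at 72 h) and stood at 3.53 ± 1.52 CPM with Sal and 2.85 ± 0.658 CPM with S + D. TEX36, a gene expressed mainly in testis, had 36, 20, 30 and 35 counts with Sal and 11, 17, 21 and 20 with S + D, and in CPM every S + D library lay below every Sal library. NOL4, which is expressed in brain and testis, had 23, 16, 21 and 24 counts with Sal and 4, 0, 3 and 3 with S + D. It was the gene with the lowest ratio of S + D to Sal (0.104) and was close to silent with both drugs together.

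Among the genes with 0 counts in all 4 Control 72 h libraries, HTRA3 and NPHS1 had the highest levels with either treatment. HTRA3 (chr4:8271481-8308825), a secreted serine protease known from placenta, ovary and heart, had 415, 318, 319 and 305 counts with Sal at 72 h and 242, 397, 407 and 372 with S + D. These levels, 10.8 ± 0.268 CPM and 10.3 ± 2.51 CPM, were at least 505-fold and at least 484-fold higher than the 0.0213 CPM that 3 counts in the 4 Control 72 h libraries together would give. Such a floor covers counting error only. Of the same family, HTRA1 stood at 1.27 CPM in the control, 2.4 CPM with Sal and 5.69 CPM with S + D at 72 h. Its log2 fold change with S + D was 2.16 (edgeR adjusted p = 2.86e-09). HTRA2 stood at 37.4, 32.7 and 37.5 CPM in the same order, and HTRA4 had at most 1 count in any library. NPHS1 (chr19:36316274-36360189), which encodes nephrin of the slit diaphragm between podocytes of the kidney, had 170, 142, 152 and 109 counts with Sal and 345, 195, 305 and 258 with S + D. Every S + D library lay above every Sal library in CPM, and the means were at least 214-fold and at least 371-fold above the same floor. The exons of NPHS1 share 5.05% of their bases with APLP1 and KIRREL2 on the opposite strand, and APLP1 stood at 15.3 CPM in the control and 51.3 CPM with Sal at 72 h.

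HTR3A and the BEX genes are known from the nervous system. HTR3A (chr11:113845797-113861035), a subunit of the serotonin-gated ion channel of neurons, had 237, 44, 44 and 45 counts with Sal at 72 h and 363, 161, 147 and 128 with S + D. In both groups the unnumbered library was the highest, and among the numbered libraries all with S + D lay above all with Sal. HTR3B, which joins HTR3A in the channel, had at most 2 counts in any library.

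On the X chromosome, BEX2 and BEX4, small brain-expressed proteins of a family confined to mammals, lie 92100 bases apart, and ARMCX3, an armadillo-repeat protein of the outer mitochondrial membrane, lies on the same arm. BEX2 (chrX:102564274-102565935) had 215, 91, 111 and 68 counts with Sal at 72 h and 314, 323, 285 and 243 with S + D, or 3.69 ± 1.3 CPM and 8.47 ± 1.43 CPM. BEX4 (chrX:102470036-102472174) had 11, 8, 17 and 16 counts with Sal and 25, 42, 43 and 53 with S + D. Both genes, whose promoters share the runs printed above, had every S + D library above every Sal library. ARMCX3 (chrX:100877787-100882833) had 116, 10, 11 and 17 counts with Sal and 88, 28, 36 and 35 with S + D, so its Sal value rested mainly on the unnumbered library.

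The 20 genes of the BEX, ARMCX and TCEAL families on the X chromosome did not move as a block. BEX5 had 88, 10, 13 and 13 counts with Sal and 46, 20, 21 and 12 with S + D at 72 h and 0 in all 8 control libraries, and so it narrowly missed the bound. TCEAL9 had 82, 23, 56 and 43 counts with Sal and 102, 106, 100 and 75 with S + D, and it missed only by the 3 counts of 1 control library. BEX1 and ARMCX1 had 0 counts in the controls and at most 14 and 11 with S + D at 72 h. BEX3, ARMCX2, ARMCX4, ARMCX6, TCEAL2, TCEAL5, TCEAL6 and TCEAL7 stayed at 4 counts or fewer in every library. ARMCX5, TCEAL1, TCEAL3 and TCEAL4 were expressed in every library, and TCEAL8 rose from 3.35 ± 1.05 CPM in the control to 17.1 ± 4.64 CPM with Sal (log2 fold change 2.35, standard error 0.34, edgeR adjusted p = 6.52e-07).

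**Figure D3:**
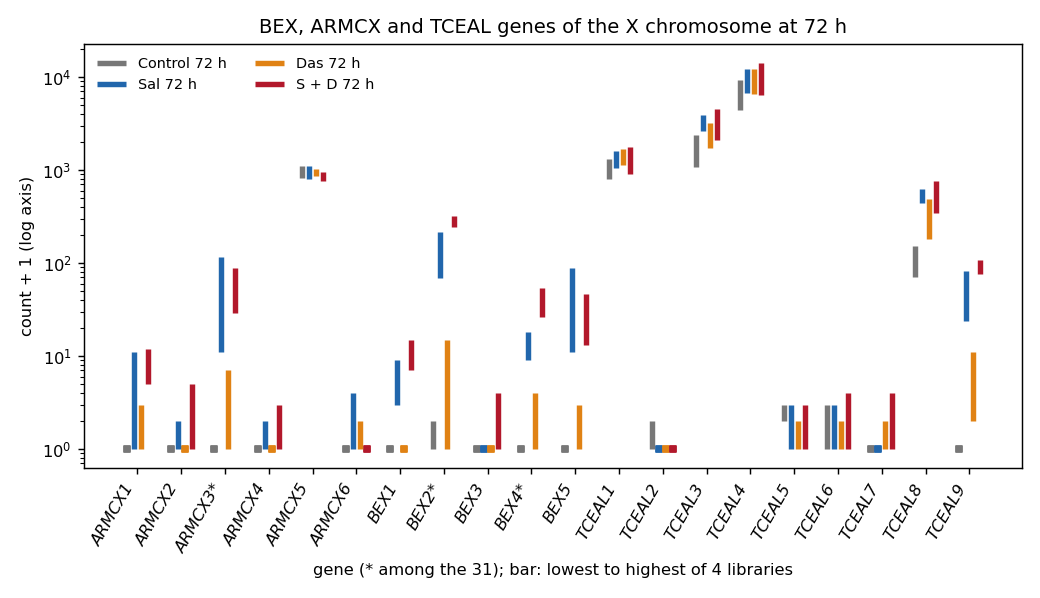
Counts (plus 1, log axis) of the 20 BEX, ARMCX and TCEAL genes in the 4 conditions of 72 h, with bars from the lowest to the highest of 4 libraries and an asterisk at the 3 genes among the 31. BEX2, BEX4, ARMCX3, BEX5 and TCEAL9 go from 0 or 1 count in the control to 8 or more with Sal and 12 or more with S + D, whereas genes such as ARMCX5 are high throughout and others such as BEX3 are at 3 counts or fewer.

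Genes of extracellular matrix and cell contact were COL20A1, COL6A1, LAMA1, ADAMTS16, CDH15 and PCDH12. COL20A1 (chr20:61924538-61966203), a fibril-associated collagen, had 738, 137, 92 and 78 counts with Sal at 72 h and 300, 45, 90 and 96 with S + D. The unnumbered library held most of these counts in both groups, and the SD with Sal (7.66 CPM) was larger than the mean (7.34 CPM). BIRC7 (chr20:61867235-61871847), the inhibitor of apoptosis known as livin, lies 52691 bases from COL20A1 and had 100, 68, 72 and 62 counts with Sal and 75, 75, 83 and 55 with S + D. In contrast to COL20A1, its libraries lay close together, at 2.38 ± 0.141 CPM with Sal and 2.08 ± 0.319 CPM with S + D. ARFGAP1 and NKAIN4 lie between them. ARFGAP1 stood at 62.4 CPM in the control, 208 CPM with Sal and 219 CPM with S + D, whereas NKAIN4 stayed at 0.0269, 0.0995 and 0.17 CPM.

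LAMA1, the laminin chain of early embryonic basement membranes, had 50, 22, 34 and 21 counts with Sal at 72 h and 18, 23, 42 and 43 with S + D. Of the laminin chains that the line already expressed, LAMA3 and LAMA4 stood at 14.3 and 108 CPM in the control and at 3.87 and 23.4 CPM with Sal. LAMA2 stood at 2.48 and 2.93 CPM and LAMA5 at 306 and 302 CPM, and neither was called. COL6A1, a chain of collagen VI of connective tissue, had 42, 12, 18 and 13 counts with Sal and 59, 18, 34 and 34 with S + D, while COL6A2, its partner chain, had at most 2 counts in any library. The summed level of 22 markers of connective tissue, cartilage and bone ran from 27.8 to 36.2 CPM in the Control 72 h libraries, from 57.6 to 80.9 with Sal and from 69.8 to 124 with S + D. Of the 7 of these markers tested, MATN1 was higher with both treatments and COL1A1 and PDGFRB with S + D, whereas MATN3 and PDGFRA were lower with both and FAP with S + D. Their part in the level of COL6A1 was not tested. ADAMTS16, a secreted metalloprotease, had 71, 9, 19 and 19 counts with Sal and 60, 59, 59 and 57 with S + D. The numbered Sal libraries of ADAMTS16 were all far below the S + D libraries, which lay within 3 counts of each other. CDH15, the cadherin of muscle precursors, had 15, 24, 17 and 24 counts with Sal and 8, 19, 23 and 16 with S + D. PCDH12, a protocadherin of endothelium, had 29, 1, 6 and 6 counts with Sal and 39, 21, 39 and 23 with S + D. CDH5, the cadherin of endothelium, had 6 to 21 counts in the Control 72 h libraries and 2 to 7 with S + D, and the summed level of 11 endothelial markers ran from 11.4 to 12.1 CPM in the control, from 4.53 to 8.84 with Sal and from 5.06 to 6.21 with S + D. Of the 5 endothelial markers tested, ROBO4 was higher with both treatments, CDH5 and KDR were lower with both and TEK was lower with S + D. TIE1, a receptor of endothelium that was silent in the controls, had a count in every Sal 72 h and S + D 72 h library. The part of endothelial transcripts in the level of PCDH12 was not tested. For all 6 genes of matrix and contact, the Sal and S + D libraries overlapped.

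Genes of gut, gland and liver made up a further group. ALPI (chr2:233320835-233325463), the alkaline phosphatase of the brush border of enterocytes, had 28, 26, 28 and 35 counts with Sal at 72 h and 31, 56, 55 and 49 with S + D. Its relative ALPP was expressed at 6.73 ± 3.11 CPM in the Control 72 h libraries, where ALPI had 1 count in all. With S + D at 72 h, ALPP stood at 2.21 ± 0.732 CPM and was lower while ALPI was higher. With Sal at 72 h, ALPP stood at 10.9 CPM and was not called (log2 fold change 0.70, adjusted p = 0.139). Whether reads were split between ALPI and ALPP was not tested. Of the same family, ALPL rose from 0.173 CPM in the control to 2.74 CPM with Sal and 3.95 CPM with S + D at 72 h. Its log2 fold change with Sal was 3.97 (edgeR adjusted p = 2.62e-08). ALPG stood at 0.238, 0.238 and 0.107 CPM in the same order. TFF2, a trefoil peptide of gastric mucus, had 22, 23, 12 and 14 counts with Sal and 33, 42, 26 and 35 with S + D. GLP2R, the receptor for an intestinal growth hormone, had 28, 0, 4 and 7 counts with Sal and 27, 28, 42 and 28 with S + D. Only the unnumbered Sal library of GLP2R was near the S + D libraries in counts, whereas the Sal libraries of TFF2 lay closer together. OTOP2, a proton channel of the gut, had 33, 35, 33 and 43 counts with Sal and 13, 27, 39 and 41 with S + D. SCGB1D2, a secretoglobin of breast and uterine glands, had 27, 15, 6 and 8 counts with Sal and 34, 52, 39 and 31 with S + D. HRG, a plasma protein made by the liver, had 39, 19, 11 and 12 counts with Sal and 18, 21, 33 and 21 with S + D. Of these 6 genes, GLP2R and SCGB1D2 had every S + D library above every Sal library in CPM, and the others overlapped.

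The remaining genes have other or less certain homes. NAT16 (chr7:100813777-100823574), named as an N-acetyltransferase, had 151, 181, 201 and 192 counts with Sal at 72 h and 231, 196, 217 and 215 with S + D, or 5.91 ± 1.4 CPM and 6.21 ± 0.364 CPM. SIGLEC1, the sialic acid receptor of macrophages, had 28, 17, 15 and 23 counts with Sal and 41, 60, 77 and 86 with S + D. Among markers of leukocytes, PTPRC, which all leukocytes express, had 0 to 5 counts in the Control 72 h libraries, 0 to 2 with Sal and 0 with S + D. CD68 of macrophages had 0 counts in the Control 72 h libraries, 0 to 7 with Sal and 0 to 2 with S + D, and the summed level of all 28 leukocyte markers ran from 38.6 to 46.7 CPM in the control, from 16.6 to 36.7 with Sal and from 25.8 to 36 with S + D. Of the 7 markers tested, CD8A and ITGAX were higher and CD14 lower with both treatments, and the part of leukocyte transcripts in the level of SIGLEC1 was not tested. TM4SF19, a tetraspan membrane protein, had 16, 8, 9 and 12 counts with Sal and 45, 32, 25 and 38 with S + D. Both SIGLEC1 and TM4SF19 had every S + D library above every Sal library in CPM. TMEM71, a membrane protein, had 25, 5, 2 and 5 counts with Sal and 39, 37, 42 and 31 with S + D. PLET1, known from placenta and hair follicle, had 33, 13, 5 and 4 counts with Sal and 42, 28, 22 and 19 with S + D. BPIFC, of the family of lipid-binding bactericidal proteins, had 39, 5, 11 and 2 counts with Sal and 27, 28, 42 and 38 with S + D. In TMEM71, PLET1 and BPIFC the unnumbered Sal library was the highest of its group. CEMP1, named for dental cementum, had 36, 25, 20 and 22 counts with Sal and 3, 7, 18 and 14 with S + D.

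For CEMP1 the gene of origin of the reads was not tested, and all of its exon bases (100%) lie in the exons of AMDHD2 on the opposite strand, a gene at 17.3 CPM in the control, 28.5 CPM with Sal and 30.3 CPM with S + D at 72 h. The use of strand in the counting is not given in the sources used here. Overlap above 5% of exon bases was found for 8 of the 31 genes, with TM4SF19 (49.6%), PLET1 (29.5%), LAMA1 (11.1%) and ARMCX3 (10.9%) next in order. Compared per kilobase of exon, the highest levels with S + D at 72 h were those of BEX2 (7.45 CPM per kb), DMRT1 (6.03), HTRA3 (3.11), SCGB1D2 (2.51) and HTR3A (2.23). With Sal at 72 h, BEX2 and HTRA3 (both 3.24 CPM per kb) and DMRT1 (2.67) came first, followed by BIRC7 (1.53) and NAT16 (1.52).

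Whether the 31 genes come from few tissues was described with 19 lists of tissue markers that hold 476 genes. Of the 281 list genes that were silent in the controls, 4 were among the 31 (1.42%, beside 0.654% of all silent protein-coding genes), namely DMRT1 of testis, NPHS1 of kidney, and ALPI and TFF2 of stomach and intestine. The other 16 lists held none. No list had more than 2 genes among the 31, and the group as a whole spread over 18 chromosomes. Among 116 list genes outside the 31 that passed the filter on low counts, Sal had 21 higher and 30 lower than the control of 72 h. Of all genes tested, 9.26% were higher and 9.49% lower with Sal. S + D had 27 of the 116 higher and 35 lower, beside 9.72% and 10.6% of all genes tested. The median log2 fold change of the list genes was 0.06 with Sal and 0.16 with S + D (0.01 and 0.02 over all genes tested). In the list of neurons, SYP, GAD1, CPLX1, INA and PRPH were higher with Sal and 2 genes were lower, out of 13 tested. In the list of testis and germ cells, PIWIL2 was higher and HORMAD1, DMC1 and MEIOB were lower with Sal, out of 12 tested. Of the 10 markers of a basal-like breast line, KRT5, KRT6A, KRT14 and KRT8 fell with both treatments, KRT17 rose with S + D (from 38.9 to 144 CPM, log2 fold change 1.88, edgeR adjusted p = 0.00727), and EGFR was not called (log2 fold change -0.32 with Sal and -0.65 with S + D).

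Genes near the 31 were called in both directions. Within 100 kb lay 136 protein-coding genes outside the 31, of which 80 were tested. Against the control of 72 h, Sal had 11 of these 80 higher and 12 lower, beside 9.26% and 9.49% of all genes tested. S + D had 10 higher and 11 lower, beside 9.72% and 10.6%. The median log2 fold changes were 0.14 with Sal and 0.11 with S + D, beside -0.049 and -0.042 over all protein-coding genes tested. GRIN2C, a subunit of the glutamate receptor of neurons, lies 61418 bases from OTOP2 and had 5, 1, 2 and 5 counts in the Control 72 h libraries and 573, 698, 669 and 562 with Sal. SCGB2A1, a secretoglobin 28296 bases from SCGB1D2, stood at 0.0487 CPM in the control, 1.72 CPM with Sal and 1.66 CPM with S + D, whereas SCGB2A2, 25346 bases from SCGB1D2, moved from 0.954 to 0.0865 and 0.0945 CPM.

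The levels with Sal and with S + D at 72 h, both of which chose the genes, are set side by side as a description with no test. The 14 genes that met the S + D bound alone had fewer than 15 counts in 1 Sal library or more by construction. By mean CPM, 21 of the 31 genes were higher with S + D than with Sal, and the median ratio was 1.74. For 10 genes (among them BEX2, BEX4, DMRT1, GLP2R, NPHS1, SCGB1D2, SIGLEC1, TM4SF19 and TMEM71) every S + D library lay above every Sal library, for 3 (CEMP1, NOL4 and TEX36) every S + D library lay below, and 18 overlapped. Over all 17227 genes tested, 7.66% lay above and 8.46% below in this way. In the numbered libraries alone, 17 of the 31 genes lay above, 3 below and 11 overlapped, beside 17.1% and 19.1% of all genes, and the median ratio was 1.81.

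**Figure D4:**
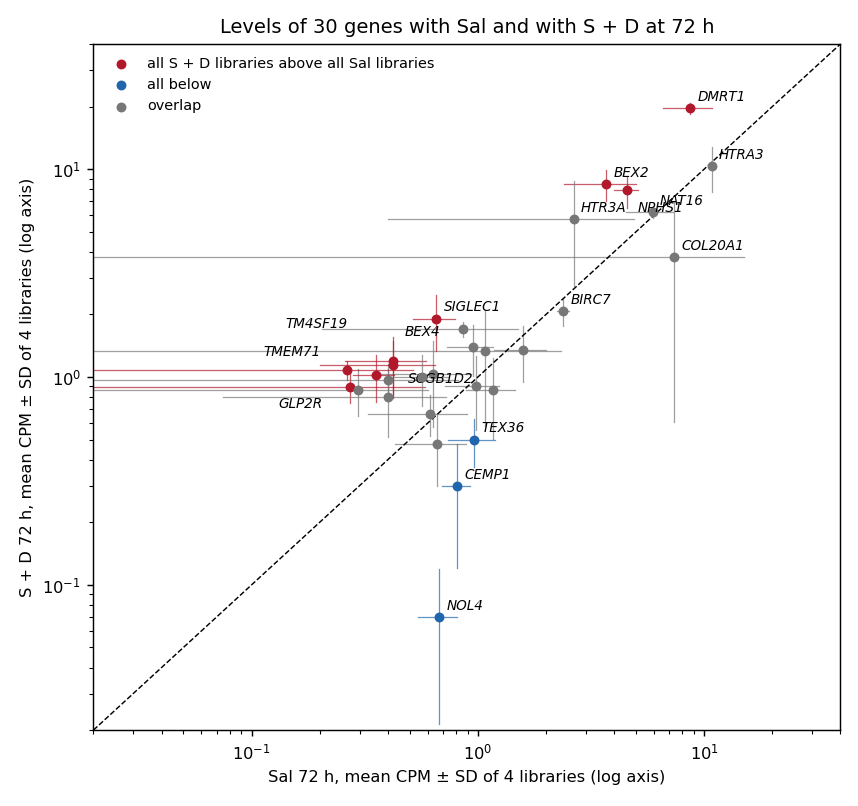
Mean CPM of 30 of the 31 genes with Sal (x axis) and S + D (y axis) at 72 h, both on log axes, with SD bars over 4 libraries that are cut at the axis limits, and the line of equal levels. The 9 red genes have every S + D library above every Sal library and the 3 blue genes the reverse, and NOL4 (ratio 0.104) lies farthest below the line.

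With Das alone at 72 h, the mean summed level of the 31 genes was 15.9 times the control of that time, but below Sal and S + D. The control in this ratio is one on which the genes were chosen to be low. At 72 h, the summed level was 6.3, 7.15 and 5.79 CPM in the unnumbered library and replicates 1 and 2, and 0.498 CPM in replicate 3, which lay close to the controls. In replicate 3, 21 of the 31 genes had 0 counts and no gene had more than 3. Replicate 3 had 33 counts of TFF1 and 16 of MRO, which Control 72 h libraries held at 0 and at 0 to 2. In other genes it lay near the controls. It had 68 counts of FGB, beside 29 to 65 in the Control 72 h libraries and 12, 4 and 2 in the other Das 72 h libraries. PRSS56 was at 0 and MUC4 at 1, beside 14 to 111 and 88 to 171 in the other Das 72 h libraries. Whether its label is right was not tested. DMRT1 had 23, 32, 24 and 0 counts, HTRA3 had 24, 28, 19 and 0, NAT16 had 22, 33, 18 and 0, and ALPI had 30, 29, 19 and 1. These 4 genes were the ones with at least 15 counts in the other 3 Das libraries. By mean CPM at 72 h, ALPI stood at 0.587 with Das and 0.948 with Sal. BEX2 had 14, 7, 3 and 0 counts and NPHS1 13, 7, 3 and 1. CEMP1, NPHS1 and SCGB1D2 were the genes with more counts in every Das 72 h library than in any control library, which was so for 0.338% of all silent protein-coding genes.

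Das at 72 h was compared with Das at 24 h, since neither group was used to choose the genes. All 31 genes were tested, because they passed the filter on low counts through the Sal 72 h and S + D 72 h libraries that chose them. Of these, 2 were higher and 0 lower at 72 h, beside 0.685% higher and 0.395% lower of all genes (edgeR's quasi-likelihood test, where a call needs an adjusted p below 0.01 with a log2 difference beyond 1.5 in either direction). DMRT1 had 1, 1, 5 and 0 counts at 24 h (log2 difference 3.45, standard error 0.81, adjusted p = 0.00416). NAT16 had 1, 2, 1 and 0 counts at 24 h (log2 difference 4.07, standard error 1.03, adjusted p = 0.00621). In both genes replicate 3 of 72 h, at 0, overlapped the libraries of 24 h. The median log2 difference of the 31 genes was 1.95, beside 0.01 over all genes, 15 had an unadjusted p under 0.05, and DESeq2 called 3. A fit of the Das libraries of both times alone called 0, and DMRT1 and NAT16 did not pass its filter. Without Das 72 h replicate 3, 3 genes were called, and without the unnumbered library or replicate 3 of 24 h, or replicate 1 or 2 of 72 h, the number was 0. The p-values here and at 24 h rest on a spread estimated from all 32 libraries, which were all grown from 1 line. These include the Sal 72 h and S + D 72 h libraries that chose the genes.

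**Figure D5:**
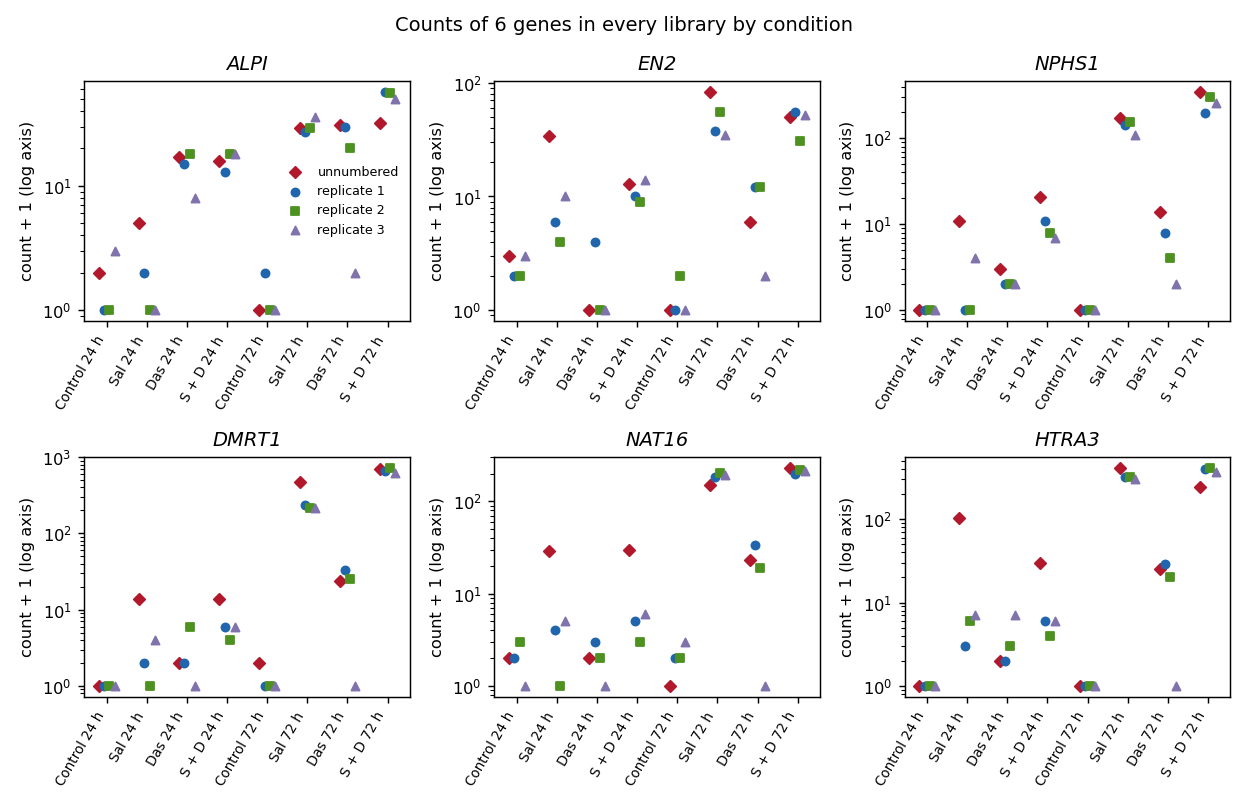
Counts (plus 1, log axis) of ALPI, EN2, NPHS1, DMRT1, NAT16 and HTRA3 in every library of the 8 conditions. At 24 h, every library is above all controls for ALPI and NPHS1 with Das and with S + D, and for EN2 with Sal and with S + D. The same holds for DMRT1 with S + D and for HTRA3 with Sal, Das and S + D. The Das 72 h library of replicate 3 lies at 0 or 1 count for all 6 genes.

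At 24 h, few of the genes were above the controls in every library. More counts in each library than in any of the 8 control libraries were found for 3 of the 31 genes with Sal (COL20A1, EN2 and HTRA3), 5 with Das (ALPI, GLP2R, HTRA3, NPHS1 and PCDH12) and 7 with S + D (ALPI, DMRT1, EN2, HTRA3, NPHS1, PCDH12 and TM4SF19). Among all 4738 silent protein-coding genes the shares were 0.106%, 0.338% and 0.675%. These comparisons share the control libraries, on which the genes were chosen to be low. The level with Sal rested on the unnumbered library, which held 10.9 CPM in all, whereas replicates 1 to 3 held 0.766, 0.936 and 1.39 CPM. In that library HTRA3 had 102 counts and COL20A1 98, whereas the numbered libraries had 2, 5 and 6 and 5, 5 and 8, and it was the highest Sal library for 24 of the 31 genes. No gene had more than 9 counts in a numbered Sal 24 h library.

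The conditions of 24 h were compared with each other, since none of them was used to choose the genes, although the genes entered the test through the same filter. Between S + D and Sal, 1 of the 31 genes was higher and 0 lower, beside 1.01% and 1.13% of all genes. This was ALPI, with 15, 12, 17 and 17 counts with S + D and 4, 1, 0 and 0 with Sal (log2 difference 3.51, standard error 0.72, adjusted p = 0.000686). The groups did not overlap, and the call held under each of 16 alternatives. An unadjusted p under 0.05, in either direction, was found for 6 of the 31 genes, the median log2 difference was 0.02, and DESeq2 called 2 genes. The 3 comparisons of 24 h share their libraries with each other.

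Between S + D and Das, 2 of the 31 genes were higher and 0 lower, beside 0.122% and 0.145% of all genes, while 7 had an unadjusted p under 0.05 in either direction and DESeq2 called 1. In a fit of the 24 h libraries alone neither EN2 nor NPHS1, the genes called, passed the filter, and 0 genes were called. EN2 had 12, 9, 8 and 13 counts with S + D and 0, 3, 0 and 0 with Das (log2 difference 3.64, standard error 0.85, adjusted p = 0.00597). NPHS1 had 20, 10, 7 and 6 counts with S + D and 2, 1, 1 and 1 with Das (log2 difference 3.02, standard error 0.74, adjusted p = 0.00968). Neither gene overlapped between the groups, but the call of NPHS1 was lost in the numbered libraries and when any 1 of the 8 libraries was left out, and that of EN2 in the numbered libraries, with DESeq2 and in 6 of these 8 cases.

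Between Sal and Das, 1 of the 31 genes was higher and 1 lower, beside 0.673% and 0.911% of all genes. EN2 was higher with Sal, with 33, 5, 3 and 9 counts (log2 difference 3.84, standard error 0.83, adjusted p = 0.00208), although the call was lost in the numbered libraries (log2 difference 2.30, adjusted p = 0.0891) and without the unnumbered library of either drug or Das replicate 2. In the fit of the 24 h libraries alone EN2 had no value. Its lowest Sal library and highest Das library both had 3 counts. ALPI was lower with Sal, since Das libraries had 16, 14, 17 and 7 counts (log2 difference -3.29, standard error 0.73, adjusted p = 0.00247), and it was not called without Sal replicate 3. The drugs were given at different doses, so this sets 0.5 μM of one against 15 μM of the other. ALPI thus had like counts with Das and with S + D, and EN2 had its lowest counts with Das. GLP2R had the same order as ALPI, with 6, 8, 10 and 12 counts with Das and 0, 1, 3 and 0 with Sal, but it did not pass the test (log2 difference -3.03, adjusted p = 0.0409).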

How the data were processed

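RNA was measured in 32 libraries of MDA-MB-468 cells, 4 for each of 8 conditions. Per the submitters' processing notes, the authors used bcl2fastq 2.19, STAR 2.5.2, Cufflinks 2.1.1 and DESeq2 on GRCh37. The deposited table holds raw counts per Ensembl gene, not normalized, and the counting program, its annotation and its use of strand are not given in the sources used here. Symbols, gene types and coordinates came from a GENCODE annotation on GRCh37, which matched 46537 of 48804 identifiers. The unnumbered columns were assigned to libraries by the condition that their titles give.

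The 31 genes and all lists were chosen with earlier results of these data known. Named genes were those on a tissue list, the highest 15 per kb of exon in Sal 72 h and in S + D 72 h, the highest 10 in Das 72 h and in S + D 24 h, those called, those nearest each bound, EGFR and family members. With these, all but 1 of the 31 are named, and that gene is counted in the totals but not reported here. GRIN2C, SCGB2A1, SCGB2A2, ARFGAP1 and NKAIN4 were named after their values were seen.

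Counts were fitted with edgeR 4.0.16 in R 4.3.3 (TMM, filterByExpr with a minimum count of 10, quasi-likelihood test, Benjamini-Hochberg adjustment over 17227 genes), with all 32 libraries in 1 model, so that the 31 genes passed the filter through the 72 h groups. Tests of the 31 genes were limited to Sal 24 h, Das 24 h, S + D 24 h and Das 72 h, which did not choose the genes. For genes outside the 31 (family members, list genes, markers and neighbours), Sal 72 h and S + D 72 h were also compared with Control 72 h in the same fit. The bounds of a call were the same. Alternatives were RLE size factors, no filter, fits of fewer groups, a block for the replicate number, the numbered libraries alone, DESeq2 1.42.0, other bounds of the rule and each library left out once. The split of S + D against Sal in the numbered libraries was added after seeing the data. The procedure was tested on simulated data in which only genes above a set mean count were changed. It therefore does not show how the test does at counts as low as those of the genes called.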

Additional observations from a re-analysis of the deposited data

Results flagged for a closer look

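In groups of 4 libraries, a library was singled out when its gap to the nearest other library, divided by the range of the group, passed the 95% critical value of Dixon's test. Of 90 groups of values examined, 12 were singled out (13.3%). The nominal rate of 5% holds for independent values with normal spread. Many of these groups hold low counts and all share the same libraries, so 5% is not their rate by chance. The summed level of the 31 genes was singled out in Sal 24 h (0.939), in S + D 24 h (0.904) and in Sal 72 h (0.919), each time for the unnumbered library as the highest, with 10.9, 6.04 and 84.6 CPM beside at most 1.39, 2.8 and 54.8 CPM in the numbered libraries.

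Single genes followed the same library in several cases. With Sal at 72 h the unnumbered library was singled out for HTR3A (0.971), ARMCX3 (0.903) and COL20A1 (0.873) as the highest, and for NAT16 (0.843) as the lowest. The unnumbered library was also the highest for NAT16 with Sal at 24 h (0.855) and with S + D at 24 h (0.891), and for ARMCX3 with S + D at 72 h (0.906). SCGB1D2 with S + D at 72 h (0.869) was singled out for replicate 1, and EN2 with Das at 24 h (1) for replicate 1, whose 3 counts stood beside 0 in the others. The unnumbered libraries of all 8 conditions deviated together from their group means (correlations across genes of 0.405 to 0.755, median 0.63), so these entries are not independent of each other, and the cause was not tested. Das 72 h replicate 3, which had at most 3 counts of any of the 31 genes, was not singled out for the summed level.

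Outside the protein-coding genes, 23 further genes met the same bounds, of which 20 were genes of long non-coding RNA and 3 were pseudogenes. They are counted here as a signal in data that no comparison of the report used.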

How the results depend on the processing

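The number of genes chosen was 31 and moved with the bounds. It was 15 with at least 30 treated counts, 6 with 0 counts in all controls and 72 with at most 5, whereas at least 10 treated counts gave 43, counts scaled to the mean library size 23 and the numbered libraries 38. Leaving out 1 library gave 31 to 35, and since the bounds apply to every library the number could not fall. In the numbered libraries, 17 genes lay higher with S + D than with Sal at 72 h without overlap, in place of 10. The numbers of genes called in the 4 tested comparisons were small and unsteady. For S + D against Sal at 24 h (1 gene), the numbered libraries gave 2, DESeq2 gave 2, and leaving out 1 library gave 1 to 3, with 3 without the unnumbered Sal library. For S + D against Das at 24 h (2 genes), the fit of the 24 h libraries, the fit of the groups compared and the numbered libraries gave 0, DESeq2 gave 1, and leaving out 1 library gave 0 to 1. For Sal against Das at 24 h (2 genes), the fit of the 24 h libraries and the numbered libraries gave 1, and leaving out 1 library gave 1 to 2. For Das at 72 h against 24 h (2 genes), the fit of the groups compared gave 0, the fit with a replicate block gave 4, and leaving out 1 library gave 0 to 3, with 3 without Das 72 h replicate 3. In the fits of fewer groups only those members could be called that passed the filter on low counts there, at most 1 at 24 h, and none for Sal against Das in the fit of the groups compared, which gave no value. The 7 called differences of ALPI, NPHS1, EN2, DMRT1 and NAT16 kept their sign under the alternatives that gave them a value, and differences of the other genes were not followed. Deviations from the group means correlated across genes at 0.405 to 0.755 between unnumbered libraries (median 0.63), at -0.3 to 0.505 between libraries with the same number (median 0.28) and at a median of -0.07 between those with different numbers. Same-numbered libraries thus tended to deviate together, but not in every pair, and no label ties a number to a shared batch, so the block stayed an alternative. With counts this low, a gene at 0 in a library may still be expressed below the depth of that library.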

Other observations

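Among genes just past the bound in the controls, MUC4, a large membrane mucin, had at most 3 counts in any control library and 2605, 1439, 1078 and 935 counts with Sal at 72 h. S + D libraries of that time had 1555, 770, 1406 and 1185 counts of it, and Das libraries 160, 171, 88 and 1. PDIA2, a protein disulfide isomerase of the pancreas, had 180, 121, 131 and 93 counts with Sal and 182, 119, 149 and 126 with S + D, and 0 in all Control 72 h libraries.

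The mirror image of the rule, at least 15 counts in every library of a control group and at most 2 in every Sal 72 h and S + D 72 h library, was met by 9 genes (TMEM98, DMC1, LRRC4, EXTL1, FGB, GLDC, FAM3D, LIPK and LTB). DMC1, a recombinase of meiosis, stood at 0.598 CPM in the Control 72 h libraries and at 0.0151 CPM with Sal, while DMRT1 of the testis moved the other way. FGB, a fibrinogen chain of the liver, moved from 1.53 to 0.0235 CPM, while HRG of the liver moved the other way.

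Among the genes that met the bound with Das were TFF1 and PRSS56. TFF1, a trefoil peptide, had 57, 35, 16 and 9 counts with Das at 24 h and 143, 28, 17 and 33 at 72 h, but 0 to 4 with Sal at 72 h and 7 to 11 with S + D at 72 h. PRSS56, a serine protease, had 57, 28, 15 and 17 counts with Das at 24 h, 24, 14, 24 and 20 with S + D at 24 h, 111, 14, 14 and 0 with Das at 72 h, and 0 in every Sal 72 h library. In Das 72 h replicate 3, TFF1 was thus present with 33 counts and PRSS56 was at 0.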
